A study of Drosophila melanogaster with 42 samples.

Results

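Within the ring gland, 150 of the 16637 transcripts measured were at least 2-fold lower under torso-RNAi than in the control cross at both times sampled, while RasV12 left their level close to that of the control. They were chosen on the driver-cross arrays. On the log2 scale, the mean of the torso-RNAi arrays had to lie at least 1 below the mean of the control arrays at 8 h and at 18 h before puparium formation, and the mean of the RasV12 arrays within 0.5 of the control at both. The highest of the 6 group means had to reach 7, an intensity of 128. The differences between these genotypes therefore chose the members, and they are given as a description with no test. The tests below come from arrays of wild-type larvae, which the choice did not use.

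The ring gland is the composite endocrine organ of the fly larva, and its largest part, the prothoracic gland, makes the steroid ecdysone that drives moulting and pupariation. Prothoracicotropic hormone (PTTH), released by brain neurons onto the prothoracic gland, binds Torso, a receptor tyrosine kinase. Torso signals through Ras, Raf and the kinase ERK, and this pathway promotes ecdysone synthesis and the timing of metamorphosis. RasV12 is a form of Ras locked in its active state, so the crosses address the pathway at the receptor, by RNAi, and downstream of it, by activation.

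RNA was hybridised to one-colour arrays, 3 per group, which the labels call biological replicates. The driver crosses were phantom-Gal4/Torso-RNAi, phantom-Gal4/RasV12 and phantom-Gal4/w1118 as the control, and ring glands of each were taken 8 and 18 h before puparium formation, which gives 18 arrays. The phantom gene encodes an enzyme of ecdysone synthesis, and its driver acts in prothoracic gland cells, while the dissected ring gland holds other cells too. All 3 crosses carry the driver. The other 24 arrays came from w1118, a laboratory stock used as wild type, as ring glands and as whole larvae at 4, 8, 24 and 36 h into the third and last larval instar. All larvae were kept in darkness at 25°C with yeast paste as food. How many glands or larvae were pooled for an array is not stated.

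The labels limit how the driver crosses can be aligned in age. They record a developmental delay for torso-RNAi larvae and an acceleration for RasV12 larvae. At 18 h they place the torso-RNAi glands late in the instar and the RasV12 and control glands in its middle. At 8 h they place the torso-RNAi and RasV12 glands late and the control glands in the middle. For all 9 arrays at 8 h the sample titles give 18 h, with a gut described as partly clear. The source description, which gives 8 h, was followed, so every 8 h value rests on that choice. Genotype and age at dissection cannot be told apart in these groups, and in RNA of a whole organ fewer cells of a type and less RNA per cell cannot be told apart.

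The table lists transcripts by FlyBase identifier without gene names. A reference table of fly genes (Release 6 plus ISO1 MT) listed 44 of the 16637 identifiers and 0 of the 150 members, so the members are given by identifier and no role can be stated for them. Without names, no list of pathway genes or cell type markers could be applied, and the labelled tissue could not be checked against its markers. The torso transcript could not be identified, so the effect of the RNAi on its target was not read, and whether torso is a member is not known. Wild-type arrays had medians of 276.1 to 335.5 and driver-cross arrays medians of 348.8 to 393.6. Arrays of a group correlated with r from 0.974 to 0.999 across transcripts, which are not independent. Both sets of arrays were taken as normalized separately, so levels are not compared between them. In wild type, replicate 1 of whole larva at 24 h and at 36 h deviated most from their groups, with SDs of the log2 deviations of 0.413 and 0.448, against 0.164 to 0.322 in the other 22 arrays. Replicate 1 of ring gland at 36 h had the highest median, 335.5 against 276.1 to 306.7. Replicates 2 and 3 of whole larva at 36 h were the closest pair, with r = 0.999. The SD of their log2 difference was 0.132, and that of every other pair within a group was at least 0.282. The main counts of members called that use the first 3 of these arrays are also given without them. Whole larva at 36 h is then left with only replicates 2 and 3. Whether those arrays are independent of each other could not be checked, so that setting has its own limit.

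Differences of this size under torso-RNAi were found for few transcripts of the whole table, and these were divided by their level in RasV12. A difference of -1 or lower was found for 1244 transcripts at 8 h (7.48% of all) and 1205 at 18 h (7.24%), and for 643 (3.86%) at both. Of these, 510 also reached the level of 7. RasV12 lay within 0.5 of the control at both times for 150 of the 510, the members. It was more than 0.5 above the control at both times for 97 of them and more than 0.5 below for 117, and 134 were within 0.5 at 1 time only. Among all 5077 transcripts that met the level and RasV12 criteria, the members made up 2.95%. These shares restate the rule.

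**Figure D1:**
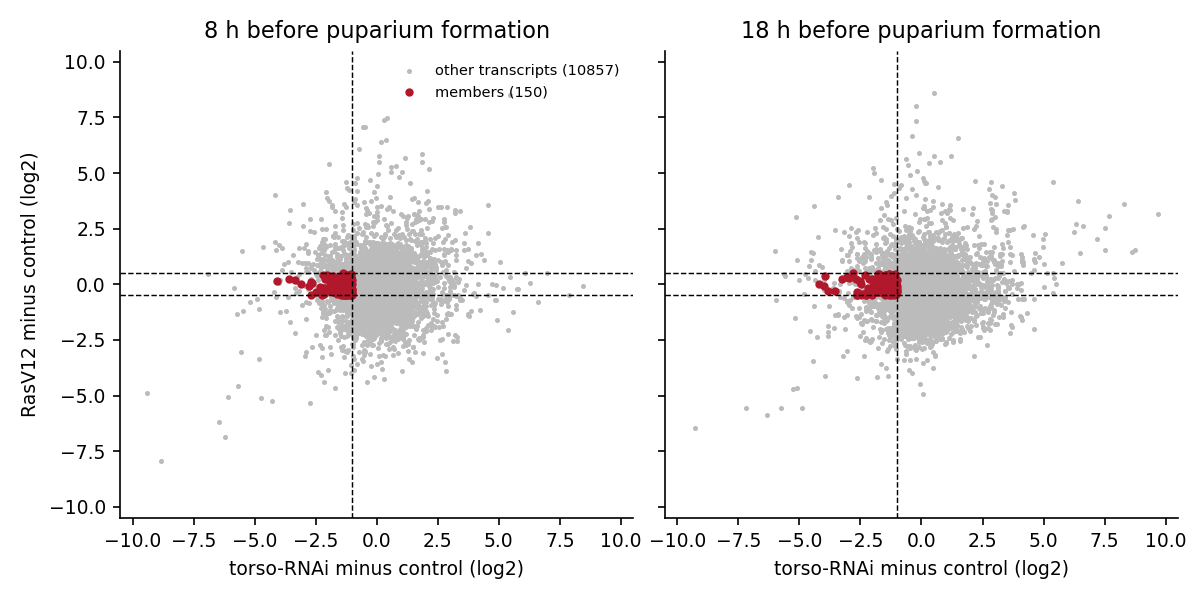
Log2 difference of torso-RNAi from control (horizontal) against that of RasV12 from control (vertical) at 8 h (left) and 18 h (right) before puparium formation, for transcripts whose highest group mean reached 7. Each point is a transcript and dashed lines are the thresholds of the rule. The 150 members fill the band left of -1 and between -0.5 and 0.5 by construction, with the lowest at -4.10 at 8 h and -4.21 at 18 h.

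The median member lay close to the limit of the rule under torso-RNAi, and a few lay more than 3 log2 units below the control. The torso-RNAi minus control differences had a median of -1.26 at 8 h, with quartiles of -1.66 and -1.11, and a median of -1.32 at 18 h, with quartiles of -1.77 and -1.12. At or below -1.5 at both times lay 32 members. At or below -2 at both times lay 14, and 2 of these were at or below -3. All torso-RNAi arrays lay below all control arrays in 149 members at 8 h and in 150 at 18 h, where the same held for 28% and 30.4% of all transcripts. Because the rule used this contrast, those counts say nothing more about the members.

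Levels of the members ranged widely in every genotype. The median member had an intensity of 596 in torso-RNAi, 1385 in RasV12 and 1573 in control glands at 8 h. At 18 h the medians were 417 in torso-RNAi, 1087 in RasV12 and 1247 in control glands. For the median of all transcripts the corresponding intensities were 382, 359 and 393 at 8 h and 383, 356 and 391 at 18 h. The lowest member in control glands had 103 at 8 h and the highest 17409.

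The member with the lowest mean difference was FBtr0112837. At 8 h it had 322, 337 and 271 in the torso-RNAi arrays, 6421, 5939 and 5503 in the RasV12 arrays and 6087, 6032 and 4040.2 in the control arrays. At 18 h it had 309.7, 311 and 284 under torso-RNAi, 3285, 3799.8 and 3312 under RasV12 and 4257, 4125 and 4423 in the control. The 6 torso-RNAi arrays lay close together and far below the others, and RasV12 overlapped the control at 8 h and lay below it at 18 h. Its differences were -4.10 and -3.82 under torso-RNAi, and 0.17 and -0.30 under RasV12, at 8 and 18 h.

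The member with the highest mean difference, FBtr0075518, shows the shallow end. It had 729.9, 523 and 543 in the torso-RNAi arrays at 8 h, 926, 1102 and 1019 in the RasV12 arrays and 1282, 1205 and 1106 in the control arrays. At 18 h the intensities were 614, 669 and 618 under torso-RNAi, 977, 1013 and 883 under RasV12 and 1224, 1212 and 1454 in the control. The 3 genotypes did not overlap at either time, with RasV12 between the others. A transcript can thus meet the rule with all of its RasV12 arrays below the control.

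By their medians, such small offsets of RasV12 leaned downwards among the members. The median difference of RasV12 from control was -0.13 at 8 h and -0.18 at 18 h, against 0.01 and 0.05 among the 5077 transcripts that met the level and RasV12 criteria. RasV12 lay below the control at both times in 73 members, above it at both in 26, and on different sides in 51. Within 0.25 of the control at both times lay 37 members. All RasV12 arrays were below all control arrays in 41 members at 8 h (27.3%, against 28.2% of all transcripts). At 18 h this held for 49 (32.7%, against 26.1%). All were above the control arrays in 17 members at 8 h (11.3%, against 27%) and 16 at 18 h (10.7%, against 29.1%). The torso-RNAi arrays all lay below all RasV12 arrays in 149 members at 8 h (31.2% of all transcripts) and in 147 at 18 h (35.1%). At each time the rule holds the torso-RNAi mean of a member below its RasV12 mean. The counts of torso-RNAi against RasV12 arrays therefore say nothing more about the members. The torso-RNAi and RasV12 differences share the control arrays, and the band of 0.5 fixes the range of the RasV12 differences. The rule used both, so the downward lean is a description and was not tested.

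Several thresholds cut through a dense part of the values. At 18 h, FBtr0074447 was a member at a torso-RNAi difference of -1.001 and FBtr0089712 was not at -0.999. At 8 h, FBtr0113938 lay inside at -1.003 and FBtr0074922 outside at -0.997. Within 0.1 of the torso-RNAi threshold were 35 members at 8 h and 32 at 18 h, and 30 and 19 transcripts failed by as little while meeting all else. For the size of the RasV12 difference, FBtr0075771 was inside at 0.499 and FBtr0071117 outside at 0.511 at 8 h, and FBtr0070087 was inside at 0.4997 and FBtr0076549 outside at 0.5008 at 18 h. Few values lay near the level of 7, with FBtr0091522 inside at 7.09 and FBtr0076012 outside at 6.99. With no level minimum, 169 transcripts met the rule, the 150 among them. With each array centred on its median deviation, 95 transcripts met the rule, all among the 150.

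The members' own change with time in the driver crosses was modest and leaned upwards in each genotype. The 8 h minus 18 h difference had a median of 0.12 in torso-RNAi glands, 0.16 in RasV12 glands and 0.14 in control glands, against 0.01, 0.01 and 0.04 over all transcripts. It was above 0 in 103 members under torso-RNAi, 99 under RasV12 and 110 in the control. A difference of 1 or more was seen in 22 members under torso-RNAi (5.96% of all transcripts), 13 under RasV12 (6.46%) and 8 in the control (3.76%). A difference of -1 or less was seen in 2 members under torso-RNAi (7.97% of all transcripts), 2 under RasV12 (6.44%) and 1 in the control (5.28%). In 146 members the torso-RNAi level at 8 h was below the control level at 18 h, in 99 of them by at least 2-fold. The rule used both of these groups, so these counts describe the members and test nothing. The rule makes a torso-RNAi group the lowest of the 6 group means and a control or RasV12 group the highest. The lowest was torso-RNAi at 18 h in 103 members and torso-RNAi at 8 h in 47. The highest was a control group in 88 members, 60 at 8 h and 28 at 18 h, and a RasV12 group in 62, 47 at 8 h and 15 at 18 h.

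The size of the torso-RNAi difference was smaller at 8 h than at 18 h in 79 members and larger in 71, by at least 1 on the log2 scale in 9 and in 1. FBtr0085689 was among the 9. At 8 h it had 366, 784 and 529.7 under torso-RNAi, 4223, 3721 and 3393 under RasV12 and 2644, 4688 and 3333 in the control. At 18 h it had 32.1, 59.6 and 40.0 under torso-RNAi, 726, 1419 and 626 under RasV12 and 458, 770.3 and 811 in the control. All 3 genotypes were higher at 8 h than at 18 h with no overlap between the times under torso-RNAi, RasV12 or control, and torso-RNAi stayed below both others at each time. Its torso-RNAi difference was -2.70 at 8 h and -3.96 at 18 h.

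FBtr0073302 and FBtr0084689 held high levels in control glands and were far lower under torso-RNAi, less so at 8 h. FBtr0073302 had 2738, 1955 and 1552 under torso-RNAi at 8 h, 9265, 9489 and 8028 under RasV12 and 12620.0, 10034 and 11696 in the control. At 18 h its intensities were 455, 484 and 588 under torso-RNAi, 8442, 11246 and 8926 under RasV12 and 10771, 7405 and 10385 in the control. RasV12 overlapped the control at 18 h and lay below it at 8 h. FBtr0084689 had 2719, 4269 and 2310.3 under torso-RNAi at 8 h, 15174, 17089 and 15021 under RasV12 and 13522, 13535 and 12519.8 in the control. The 18 h intensities were 1351, 1220.3 and 1213 under torso-RNAi, 14267, 14002 and 13500.4 under RasV12 and 11918, 11019.8 and 12711 in the control. The RasV12 arrays of FBtr0084689 were all above the control arrays at both times, within the band of the rule.

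FBtr0086513 was low and variable. It had 8.45, 10.3 and 9.61 under torso-RNAi at 8 h, 75.7, 89.6 and 78.7 under RasV12 and 126, 183 and 23.5 in the control, so control replicate 3 lay below every RasV12 array. At 18 h it had 95.2, 118 and 34.4 under torso-RNAi, 429, 139 and 584 under RasV12 and 341, 792 and 360.2 in the control. Its steadiness in RasV12 rests on group means with a wide spread. FBtr0070836 was the reverse case, with little spread at a high level. It had 8937, 9279 and 7725 under torso-RNAi at 8 h, 19193, 21273 and 18582 under RasV12 and 17641, 18637 and 15951 in the control, and its differences from control under torso-RNAi were -1.01 at 8 h and -1.04 at 18 h.

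**Figure D2:**
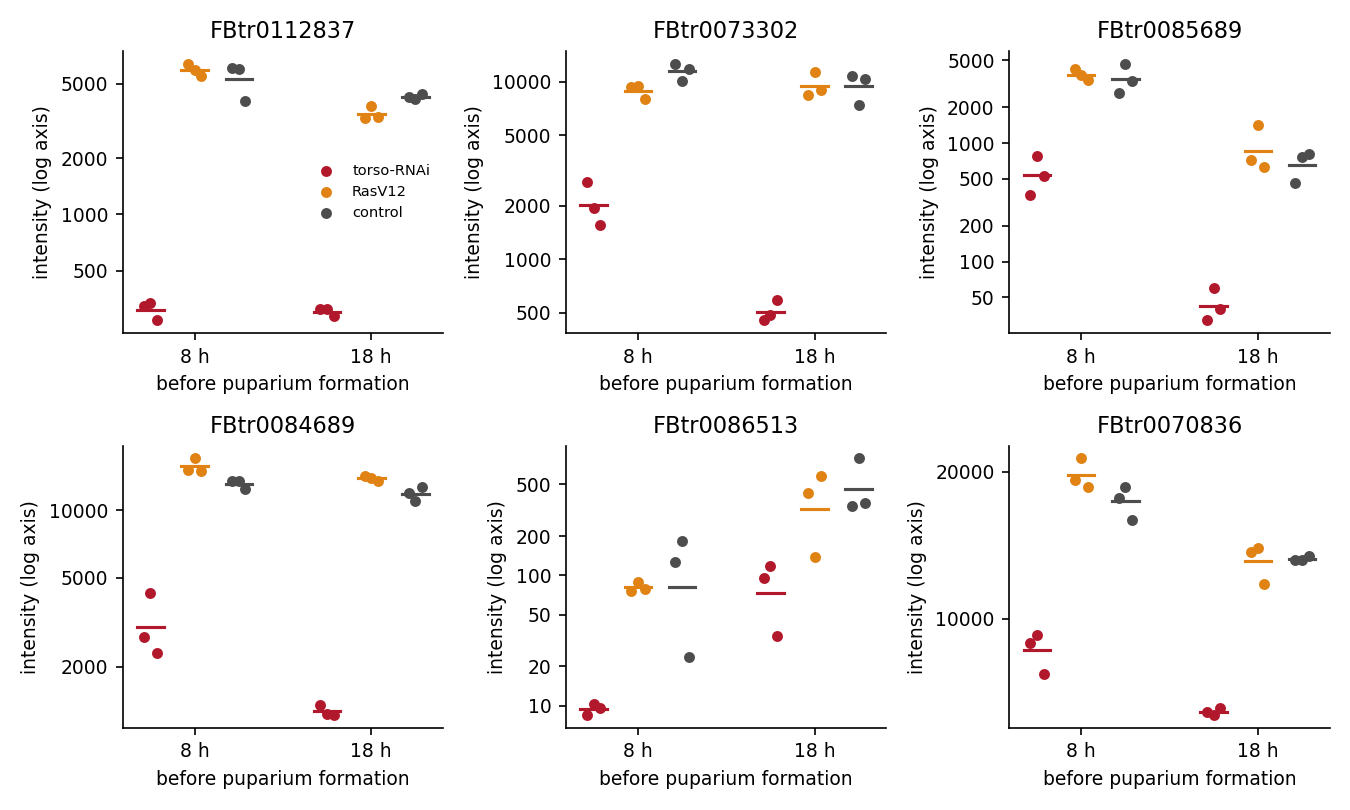
Intensity (log axis) of 6 members in each driver-cross array at 8 h and 18 h before puparium formation, with torso-RNAi, RasV12 and control from left to right at each time. Points are arrays and bars are means of the 3 log2 values. In all 6 panels the torso-RNAi arrays lie below the control arrays, and those of FBtr0086513 in the control spread from 23.5 to 183 at 8 h.

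Some members carry the same signal more than once. In 4 pairs (8 members) the transcripts stayed within 0.5 of each other on the log2 scale on all 42 arrays, among them FBtr0112837 and FBtr0088938, whose largest gap was 0.49. Whether the members of a pair belong to 1 gene or share probes cannot be read from the table, so the 150 are not 150 independent measurements.

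In wild-type larvae, the members were mostly higher in the ring gland than in the whole larva. limma called 109 members higher and 12 lower in ring gland at 4 h (40.7% and 20.7% of all transcripts), at adjusted p under 0.05 over all 16637 transcripts. The higher and lower members numbered 108 and 13 at 8 h (43.3% and 21.4%). At 24 h they numbered 116 and 13 (46.1% and 23.2%), and at 36 h 134 and 7 (56.3% and 24.4%). The median member difference was 0.88, 0.90, 1.09 and 1.53 on the log2 scale at 4, 8, 24 and 36 h, against 0.18, 0.22, 0.27 and 0.44 over all transcripts and 0.56, 0.60, 0.62 and 0.74 over the 5077 transcripts that met the level and RasV12 criteria. The rule asks for a minimum level in ring glands, so these counts are read beside transcripts that met the same minimum. Among the 5077, 67.8% were higher at 4 h, 70% at 8 h, 71.1% at 24 h and 77.4% at 36 h, and 9.1%, 8.77%, 8.23% and 7.21% were lower at these times. Against these shares the members' 72.7%, 72.0%, 77.3% and 89.3% were near the background at 4 and 8 h and above it at 36 h, a gap that was not tested. The members' shares of lower calls were 8.00%, 8.67%, 8.67% and 4.67%.

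At all 4 times 97 members were called higher in ring gland (64.7%, against 32.2% of all transcripts and 57.2% of the 5077) and 5 lower (3.33%, against 12.6% and 4.22%). At least 4-fold higher throughout were 10 members (6.67%, against 1.56% and 1.52%), and called at none of the times were 2 (1.33%, against 7.42% and 4.63%). The 10 include near-identical pairs, FBtr0112837 with FBtr0088938 and FBtr0100309 with FBtr0100310, so they are not 10 separate signals. Without the 3 arrays that stand apart, 94 were higher at all 4 times (31.6% of all transcripts and 55.4% of the 5077), 5 lower (14.1% and 4.49%) and 10 at least 4-fold higher (1.54% and 1.5%).

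Centring the arrays, which brings the median of all transcripts to within 0.05 of 0, lowered the counts of higher members and the background with them. The members called higher were then 92 at 4 h, 93 at 8 h, 99 at 24 h and 111 at 36 h. These are 61.3%, 62.0%, 66.0% and 74.0% of the members, against 52.4%, 52.6%, 53.9% and 50.6% of the 5077 and 30.9%, 31.8%, 32.2% and 34.1% of all transcripts. Called lower were 15, 18, 16 and 7 members, against 15.5%, 15.5%, 14.9% and 19.2% of the 5077 and 28.7%, 29.8%, 31% and 34.3% of all transcripts. Without the 3 arrays that stand apart, the 24 h calls were 115 higher with 13 lower (47.1% and 24.7% of all transcripts, 70.9% and 8.13% of the 5077). The 36 h calls were then 125 higher with 7 lower (50% and 24.4% of all transcripts, 70.6% and 7.68% of the 5077).

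**Figure D3:**
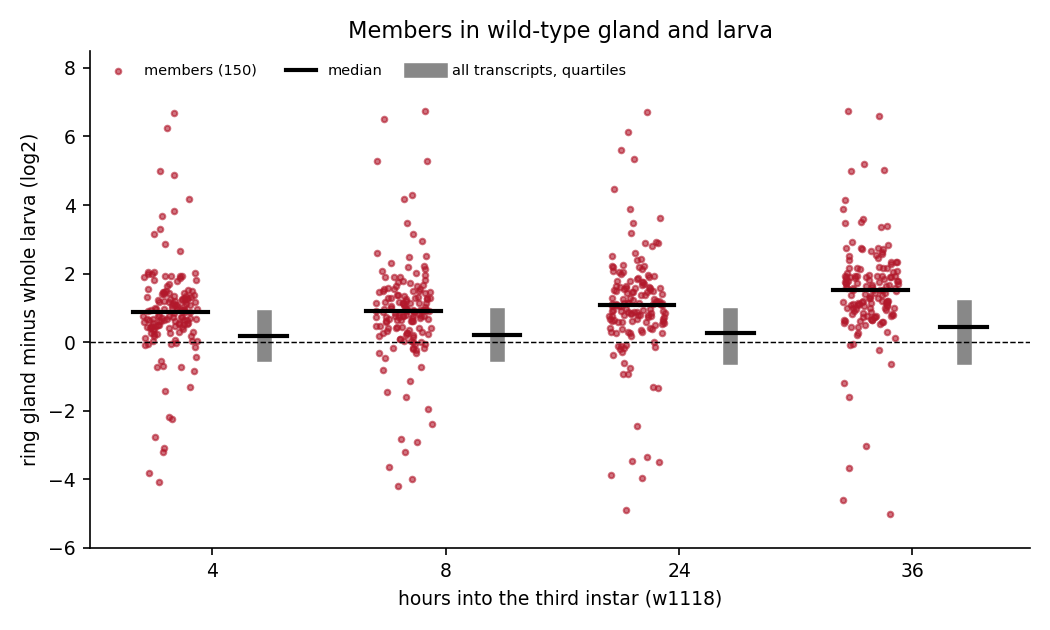
Log2 difference of wild-type ring gland from whole larva at 4, 8, 24 and 36 h into the third instar. Red points are the 150 members with their median as a black bar, and the grey bar to the right of each runs from the lower to the upper quartile of all 16637 transcripts, with their median. The member medians lie at 0.88, 0.90, 1.09 and 1.53, and a few members reach below -4.

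FBtr0088938 and FBtr0112837, one of the near-identical pairs, led the gland-high members at all 4 times. FBtr0112837 had 2633, 2777 and 3074 in ring gland at 4 h, against 45.8, 48.3 and 23.6 in whole larva, and 2818, 3193 and 3138 at 36 h, against 26.4, 36.8 and 32.8. Its ring gland level stayed within a narrow range at all times, and the tissues did not overlap. The log2 difference of FBtr0112837 was 6.24 ± 0.27 (limma SE, adjusted p = 9.7e-13) at 4 h and 6.59 ± 0.27 (limma SE, adjusted p = 4e-13) at 36 h, and that of FBtr0088938 was 6.74 ± 0.18 (limma SE, adjusted p = 5.6e-16) at 36 h.

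FBtr0086513 and FBtr0072337 went the other way. FBtr0086513 had 483, 4232 and 306 in ring gland at 4 h, against 12096, 13827 and 10569.9 in whole larva. At 36 h it had 145, 168 and 633 in ring gland, against 12674, 6356 and 6249 in whole larva. One ring gland array at 4 h, replicate 2, was far above the others but still below every larval array. The log2 difference at 4 h was -3.82 ± 0.75 (limma SE, adjusted p = 0.00021), and it was -4.97 without replicate 2 and -3.08 without replicate 3 of ring gland. At 8 h it was -3.99 ± 0.75 (limma SE), or -3.34 without ring gland replicate 1. At 36 h it was -5.00 ± 0.75 (limma SE, adjusted p = 7.5e-06), or -5.67 without ring gland replicate 3 and -4.27 without the 3 arrays that stand apart.

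FBtr0072337 had 311, 182 and 250.4 in ring gland at 36 h, against 6081, 5569.7 and 6064 in whole larva, a difference of -4.61 ± 0.44 (limma SE, adjusted p = 3e-08). Its level in the larva was alike at all times, between 4469 and 6127. At 24 h the lowest called differences were those of FBtr0086513, at -4.89 ± 0.75 (limma SE, adjusted p = 1.3e-05), and FBtr0085689, at -3.95 ± 0.24 (limma SE, adjusted p = 9.1e-11). FBtr0085689 had 178, 99.4 and 137 in ring gland at 24 h, against 2106, 2015 and 2128 in whole larva.

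Through the third instar, more members were called in the later steps of the wild-type gland than in the first, and mostly upwards, though the steps span unequal times. At 8 h against 4 h limma called 2 members higher and 2 lower (2.4% and 2.35% of all transcripts). At 24 h against 8 h, 15 were higher and 7 lower (5.08% and 5.58%). At 36 h against 24 h, 30 were higher and 2 lower (7.07% and 3.97%). Among the 5077 transcripts that met the level and RasV12 criteria, the higher and lower shares were 2.34% and 1.04% in the first step, 5.22% and 5.18% in the second, and 6.32% and 1.93% in the last. Single arrays moved the last count. It was 17 higher and 2 lower without ring gland replicate 1 at 36 h (3.47% and 3.81% of all transcripts, 2.28% and 1.71% of the 5077), and 18 and 2 without replicate 2 at 24 h (3.65% and 2.61% of all transcripts, 2.46% and 1.04% of the 5077). Without the 3 arrays that stand apart it was 20 and 2 (4.69% and 4.59% of all transcripts, 3.17% and 2.17% of the 5077). Under that setting the step from 8 to 24 h had more calls than the last and was less one-sided. It had 1 higher and 3 lower among the 14 members at -2 or lower under torso-RNAi at both times. Among the other 136 it had 17 higher and 8 lower. Shares of all transcripts are not given for that step under this setting. The members' median change was -0.02, 0.15 and 0.21 in these steps, against 0.04, 0.01 and 0.09 over all transcripts.

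Over the whole interval, at 36 h against 4 h, 63 members rose in the gland and 8 fell (24.5% and 13.4% of all transcripts), and 79 were not called. Among the 5077 transcripts that met the level and RasV12 criteria, 30.2% rose and 9.47% fell, against 42.0% and 5.33% of the members. The median change was 0.39, against 0.15 over all transcripts and 0.17 over the 5077. At least 2-fold, 24 members rose and 6 fell (5.25% and 7.08% of all transcripts, 2.99% and 2.13% of the 5077). With arrays centred 46 rose and 11 fell (14.9% and 18.7% of all transcripts, 16% and 17.5% of the 5077). Without the 3 arrays that stand apart 47 rose and 9 fell (19.8% and 14.1% of all transcripts, 22.9% and 10.6% of the 5077). The members' lean towards a rise was not tested as a group.

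The early step, from 4 to 8 h, was the least certain. FBtr0082885 had 77.2, 78.8 and 86.0 at 8 h, against 32.6, 41.6 and 47.2 at 4 h, a change of 1.01 ± 0.24 (limma SE, adjusted p = 0.021). FBtr0084601 rose by 0.70 ± 0.20 (limma SE, adjusted p = 0.047), and FBtr0072413 changed by -0.87 ± 0.24 (limma SE, adjusted p = 0.043). FBtr0070836 had 128, 93.5 and 132 at 8 h, against 240.5, 245 and 217 at 4 h, a change of -1.004 ± 0.18 (limma SE, adjusted p = 0.0026). Fitted on the 6 compared arrays alone, limma called 0 of the members, with 21 at an unadjusted p under 0.05. The calls were 2 without ring gland replicate 1 at 4 h, 1 without replicate 2 at 8 h and 1 without replicate 3 at 8 h. The rise of FBtr0084601 was 0.41 without ring gland replicate 2 at 4 h, and was not called then (limma adjusted p = 0.19).

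FBtr0084601 and FBtr0084689 rose most from 4 to 36 h. FBtr0084601 had 3209, 2442 and 2879 in ring gland at 36 h, against 297, 167 and 315 at 4 h, a change of 3.50 ± 0.20 (limma SE, adjusted p = 1.5e-10). The step from 8 to 24 h held most of it, at 2.25 ± 0.20 (limma SE, adjusted p = 2.7e-07). It also rose in whole larva, with 1477, 2064 and 2088 at 36 h, against 229.9, 228 and 231 at 4 h, a change of 3.01 ± 0.20 (limma SE, adjusted p = 7e-10). The difference between the tissues was 0.48 ± 0.28 (limma SE, adjusted p = 0.16) and was not called.

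FBtr0084689 had 214, 272 and 166 in ring gland at 4 h and 128, 123 and 111 at 8 h. It then reached 528, 758 and 661 at 24 h, followed by 2753, 1779 and 1985 at 36 h. It was at its lowest at 8 h and higher at each later time with no overlap. Its change was 2.41 ± 0.27 (limma SE, adjusted p = 6e-06) at 24 h against 8 h and 3.32 ± 0.27 (limma SE, adjusted p = 2.2e-08) at 36 h against 4 h. In whole larva it had 193, 418 and 469.8 at 36 h, against 303, 354 and 376 at 4 h, and these overlapped.

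FBtr0085689 and FBtr0070836 rose in the last step. FBtr0085689 had 1655, 1067 and 1682 at 36 h, against 178, 99.4 and 137 at 24 h, a change of 3.42 ± 0.24 (limma SE, adjusted p = 4.8e-08). FBtr0070836 had 1163, 750.3 and 1017 at 36 h, against 181, 114 and 160.4 at 24 h, a change of 2.69 ± 0.18 (limma SE, adjusted p = 1.8e-08). Both had been below their 4 h means at 8 h. Among called members, the largest falls in that step were those of FBtr0290123, at -2.12 ± 0.33 (limma SE, adjusted p = 0.00032), and FBtr0085371, at -0.93 ± 0.18 (limma SE, adjusted p = 0.0017).

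FBtr0290123 and FBtr0073302 fell most, in both tissues. FBtr0290123 had 1865, 1402 and 2300.4 in ring gland at 4 h and 2992, 1209 and 1472 at 8 h. It then had 155, 104 and 165 at 24 h, followed by 39.1, 25.2 and 33.2 at 36 h. Its gland change was -3.65 ± 0.33 (limma SE, adjusted p = 4.5e-07) at 24 h against 8 h and -5.83 ± 0.33 (limma SE, adjusted p = 1.8e-10) at 36 h against 4 h. FBtr0073302 had 116, 89.9 and 98.5 in ring gland at 36 h, against 1868, 1146 and 2137 at 4 h, a change of -4.04 ± 0.35 (limma SE, adjusted p = 5e-08), with -3.36 ± 0.35 (limma SE, adjusted p = 2.5e-06) of it between 8 and 24 h. In whole larva FBtr0073302 had 90.8, 146 and 127 at 36 h, against 15578, 17777 and 13196 at 4 h, a change of -7.01 ± 0.35 (limma SE, adjusted p = 1.8e-11). That of FBtr0290123 in whole larva was -6.99 ± 0.33 (limma SE, adjusted p = 8.6e-12).

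**Figure D4:**
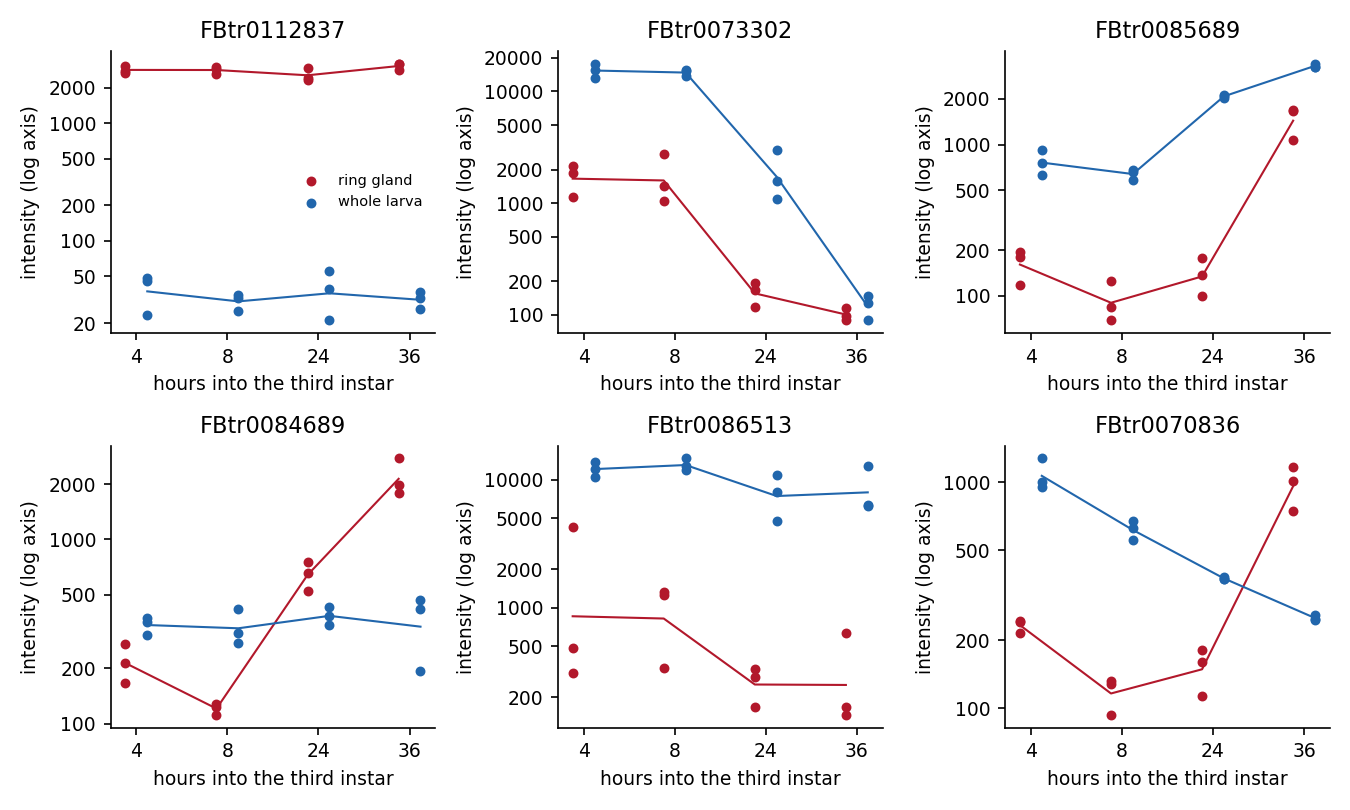
Intensity (log axis) of the same 6 members in wild-type ring gland (red) and whole larva (blue) at 4, 8, 24 and 36 h into the third instar. Points are arrays, and lines join the means of the 3 log2 values. FBtr0112837 stays between 2313 and 3193 in ring gland, FBtr0073302 falls in both tissues, and FBtr0070836 ends higher in ring gland than in whole larva after starting lower.

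In whole larva more members were called as fallen than as risen, but not at a 2-fold minimum. At 36 h against 4 h, 18 members rose and 49 fell (25.6% and 28.3% of all transcripts), with a median change of -0.22, against -0.08 over all transcripts. Rises were thus called in 12.0% of the members, against 25.4% of the 5077 transcripts that met the level and RasV12 criteria, and falls in 32.7% against 27.2%. At least 2-fold, 14 rose and 14 fell (12.2% and 9.98% of all transcripts, 3.82% and 5.59% of the 5077). When the 3 arrays that stand apart were left out, 23 rose and 34 fell (27% and 25% of all transcripts, 27.9% and 23.3% of the 5077). These were 15.3% and 22.7% of the members, so the falls were then near the background and the rises below it. FBtr0078156 rose with FBtr0084601 at the top, with 1432, 1023 and 1228 at 36 h, against 194, 204 and 272 at 4 h, a change of 2.46 ± 0.16 (limma SE, adjusted p = 5e-10).

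Members called in opposite directions in the tissues were few, and their number rested on the arrays that stand apart. There were 14 members called as risen in the gland and fallen in the larva (3.91% of all transcripts) and 0 with the reverse pattern (0.866%). A further 14 rose in both (8.58%) and 5 fell in both (7.78%), 35 rose in the gland alone (12%), 3 fell in the gland alone (4.8%), 30 fell in the larva alone (16.6%) and 4 rose in the larva alone (16.1%). In neither tissue were 45 called (29.3%). With those 3 arrays left out, 5 members had risen in the gland and fallen in the larva (2.29% of all transcripts) and 1 showed the reverse (1.12%). A call in 1 tissue and none in the other does not show a difference, so the difference was tested itself. limma called 75 members on the change in ring gland minus the change in whole larva, 68 above 0 and 7 below (27.7% and 17.3% of all transcripts, 27.5% and 9.89% of the 5077). The median of this difference was 0.60, against 0.19 over all transcripts. With arrays centred 50 were above 0 and 10 below (17.8% and 23.5% of all transcripts, 17.3% and 20.6% of the 5077). The counts were 49 and 10 without the 3 arrays that stand apart (20.4% and 18.6% of all transcripts, 19.6% and 12.1% of the 5077).

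**Figure D5:**
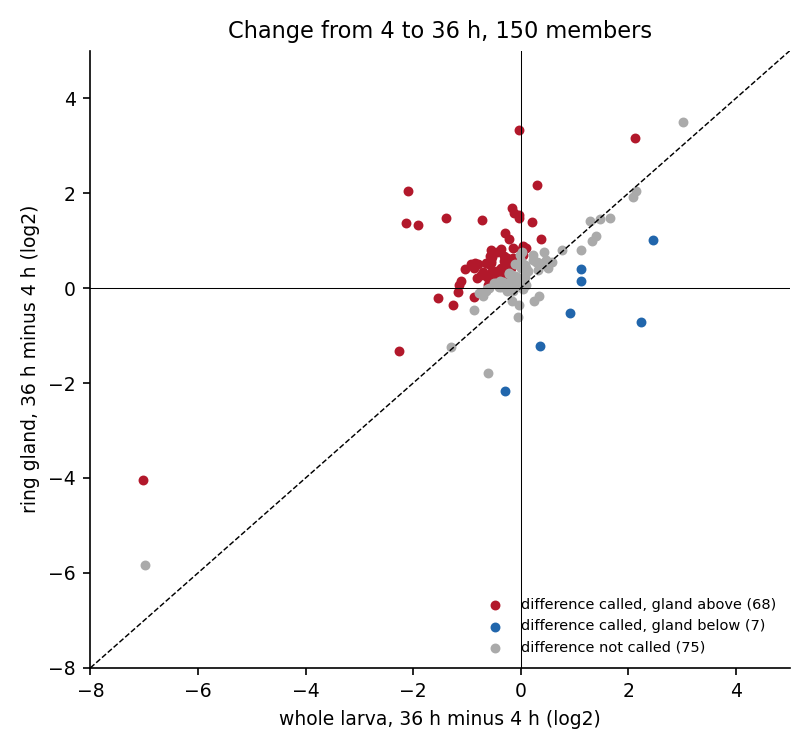
Log2 change at 36 h against 4 h in wild-type ring gland (vertical) and in whole larva (horizontal) for the 150 members. Red and blue mark the 68 and 7 members whose change differed between the tissues, and the dashed line is equal change. Most red points lie near or above 0 in the gland and below 0 in the larva, and FBtr0073302 and FBtr0290123 are the pair at the lower left.

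FBtr0070836 and FBtr0071107 had the largest differences between the tissues. FBtr0070836 had 1163, 750.3 and 1017 in ring gland at 36 h, against 240.5, 245 and 217 at 4 h. In whole larva it had 247, 258 and 248 at 36 h, against 948, 1008 and 1275 at 4 h, so the tissues changed places in order. The difference of the changes was 4.13 ± 0.25 (limma SE, adjusted p = 1.6e-09). FBtr0071107 had 1077, 601 and 881 in ring gland at 36 h, against 381, 264 and 335 at 4 h. In whole larva it had 43.8, 48.8 and 47.6 at 36 h, against 207, 272 and 154 at 4 h. The gland arrays were higher and the larval arrays lower at 36 h with no overlap, and the difference of the changes was 3.50 ± 0.33 (limma SE, adjusted p = 4e-07).

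On the other side stood FBtr0091522 and FBtr0085371. FBtr0091522, the member nearest the level of 7, had 21.8, 17.0 and 25.4 in ring gland at 36 h, against 28.8, 45.1 and 31.6 at 4 h, and 679, 162 and 172 in whole larva at 36 h, against 47.1, 42.1 and 91.4 at 4 h. Whole larva replicate 1 at 36 h was far above the other arrays. The difference was -2.94 ± 0.74 (limma SE, adjusted p = 0.004), or -2.27 without that array. FBtr0085371 had 1878, 1325 and 1588 in ring gland at 36 h, against 8319, 5772 and 7369 at 4 h, and 820.0, 944 and 984 in whole larva at 36 h, against 1094, 904 and 1431 at 4 h. Its difference was -1.86 ± 0.25 (limma SE, adjusted p = 1.8e-05).

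The members lowest under torso-RNAi went both ways in wild type. Of the 14 at -2 or lower at both times, 6 rose and 5 fell in the gland at 36 h against 4 h. The changes of the 14 ran from -5.83 to 3.32. Of the other 136 members 57 rose and 3 fell, and over all transcripts 24.5% rose and 13.4% fell. In ring gland against whole larva at 36 h, 10 of the 14 were higher and 3 lower, against 124 and 4 of the other 136. Over all transcripts 56.3% were higher and 24.4% lower. Without the 3 arrays that stand apart, 5 of the 14 rose and 5 fell in the gland, against 42 and 4 of the others. The calls against whole larva were then 10 and 3, against 115 and 4. Over all transcripts the shares were then 19.8% and 14.1% in the gland, and 50% and 24.4% against whole larva. This split rests on driver-cross values that the rule used. It was made after the values were seen, and it was not tested. Across all 150 members, which are not independent, the mean torso-RNAi difference and the gland change at 36 h against 4 h had a Pearson r of 0.11 and a Spearman rho of -0.16, and the values share no array.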

How the data were processed

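One-colour intensity values of 16637 transcripts on 42 arrays, 24 of wild type and 18 of driver crosses, were analysed as deposited. RMA is named, without a version, in the submitters' processing notes, and the values deposited by the authors are linear intensities. For probe annotation, background correction and slide, nothing is given in the sources used here. Array minima of 8.23 to 9.52 in wild type and 1.83 to 2.06 in the driver crosses, with different decimals, led to both being treated as separately normalized, with no test between them. There were 0 identical columns and 0 columns of other samples. The number of arrays limits the precision.

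Values were taken to log2 with no pseudocount. Members were found from means of 3 log2 values per driver-cross group. The 24 wild-type arrays were fitted in limma 3.58.1 (R 4.3.3) with 8 group means, 10 contrasts and empirical Bayes moderation. A transcript was called at a 2-sided Benjamini-Hochberg adjusted p under 0.05 over 16637 transcripts. Errors are limma standard errors. On average the deviations gave no sign that replicate numbers pair the arrays. Arrays with the same number had a mean r of -0.02 over 84 pairs, from -0.48 to 0.34. Those with different numbers had a mean r of 0.01 over 168 pairs, from -0.43 to 0.48. A mean cannot exclude pairing within single groups.

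Named members are those with the lowest and highest mean torso-RNAi difference, those nearest each threshold and, per contrast, the 2 largest rises and 2 largest falls among called members with no overlap between groups (for the difference between tissues, called alone). Others shown in a figure or beside their driver-cross values were taken from these. Members and gene lists were chosen with earlier results of these data known. Alternatives were another quantile normalization, centring, a filter on the dimmest 25%, trend and robust moderation, array weights, a 2-fold minimum, a fit of only the groups compared, a block for replicate number, other thresholds of the rule and each array left out. After seeing the data, leaving out 3 arrays and averaging whole larva replicates 2 and 3 at 36 h were added. Sequences are not shown, since the identifiers were not matched to any.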

Additional observations from a re-analysis of the deposited data

Results flagged for a closer look

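The change from 4 to 36 h in wild-type larvae differed between ring gland and whole larva for 75 of the 150 members, by a test of the difference itself in limma. It was called above 0 for 68 (45.3%) and below 0 for 7 (4.67%). The difference of the log2 changes, ring gland minus whole larva, was 4.13 for FBtr0070836 and 3.50 for FBtr0071107, both above 0 because the gland rose and the larva fell. It was -2.94 for FBtr0091522, where 1 larval array at 36 h had an intensity of 679 and the other larval arrays at that time 162 and 172, and -1.86 for FBtr0085371, which fell further in the gland. Over all 16637 transcripts 27.7% were called above 0 and 17.3% below, and over the 5077 that met the level and RasV12 criteria 27.5% and 9.89%. A neighbouring set, 45 transcripts lowered in both torso-RNAi and RasV12, had 19 called above 0 (42.2%) and 1 below (2.22%). Its median difference was 0.60, as in the members, so the lean was not particular to the members. With arrays centred the members called were 50 above and 10 below (17.8% and 23.5% of all transcripts). Without the 3 arrays that stand apart they were 49 and 10 (20.4% and 18.6%).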

How the results depend on the processing

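A 2-fold minimum left 2 of 4 calls at 8 against 4 h in the gland, 8 of 22 at 24 against 8 h, 12 of 32 at 36 against 24 h, 30 of 71 at 36 against 4 h, 28 of 67 in whole larva, 72 and 75 of 121 in gland against larva at 4 and 8 h, and 43 of 75 for the difference between tissues. Fitted on the compared groups alone, limma called 0 at 8 against 4 h (21 at an unadjusted p under 0.05, and 17 in the fit of all groups) and 15 at 36 against 24 h. At 8 against 4 h it called 7 without the 3 arrays that stand apart and 2 with larval arrays averaged. Members that rose in the gland and fell in the larva numbered 5 without the 3 arrays that stand apart, against 14, and those with the reverse pattern 1, against 0. The split of higher and lower calls there was 1 and 5 with arrays centred, against 2 and 2. The rule found 95 members with arrays centred, 32 with torso-RNAi at -1.5 or lower, 37 with RasV12 within 0.25 and 306 within 1. A second quantile normalization found 151, of which 121 were shared, and means of linear values 148, of which 142 were shared. Other counts stayed within 1.5 times under the planned and added settings, apart from leaving out single arrays. That moved the counts at 8 against 4 h and at 36 against 24 h further, as given below. The cause of these moves was not tested, apart from the narrower or wider limits, which set the counts by construction.

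With 1 array left out, the members numbered 131 to 161. Calls were 1 to 5 at 8 against 4 h, 16 to 20 at 24 against 8 h, 19 to 29 at 36 against 24 h, 53 to 72 at 36 against 4 h and 55 to 67 in whole larva. Gland against larva gave 110 to 125, 114 to 120, 123 to 129 and 137 to 143 at 4, 8, 24 and 36 h, and the difference between tissues 62 to 78. Of 662 alternative values for 40 results on 16 named members, 0 changed sign and 25 lost the call, in 5 results, 4 of them at 8 against 4 h.

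With the replicate number as a block, the calls were 3, 21, 33 and 72 in the 4 gland contrasts, 69 in whole larva, 124, 122, 130 and 141 in gland against larva, and 76 for the difference between tissues. On average the deviations gave no sign that the numbers pair the arrays.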

Other observations

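Neighbouring sets of transcripts, defined by the same thresholds on the driver-cross arrays, were set beside the members in wild type, with no test between the sets. The first set held 45 transcripts lowered at least 2-fold at both times in both torso-RNAi and RasV12. Of these, 17 rose (37.8%) and 4 fell (8.89%) in the gland at 36 h against 4 h. At 36 h 35 of the 45 (77.8%) were called higher in the gland than in the larva and 2 lower (4.44%). The other set held 64 transcripts raised at least 2-fold by torso-RNAi and steady in RasV12. Of these, 7 rose (10.9%) and 28 fell (43.75%) in the gland. At 36 h 20 of the 64 (31.25%) were called higher in the gland than in the larva and 33 lower (51.6%). Among the 150 members these counts were 63 and 8 (42.0% and 5.33%), and 134 and 7 (89.3% and 4.67%). Over all transcripts the shares were 24.5% and 13.4%, and 56.3% and 24.4%. Over the 5077 transcripts that met the level and RasV12 criteria they were 30.2% and 9.47%, and 77.4% and 7.21%. The sets share the control arrays and were chosen with these results known.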
